A study of Rattus norvegicus with 6 samples.

Results

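The interleukin-1 family joins a small set of inflammatory cytokines to their receptors, a receptor antagonist, a soluble binding protein and a decoy receptor. Its members here are 10 genes, taken by name from the deposited count and FPKM tables: the ligands Il1a, Il1b, Il18 and Il33, the antagonist Il1rn, the binding protein Il18bp, the signalling receptor chains Il1r1, Il1rl1 and Il1rap, and the decoy receptor Il1r2. All 10 were among the 33713 genes of the tables and had counts. After the filter on low counts, 9 were tested, and Il1a was not.

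The data are bulk RNA sequencing of injured sciatic nerve from female Sprague-Dawley rats aged 8 weeks, sampled on day 4. The protocol in the labels states that the nerve ends had drawn apart by about 6 mm, and each end was then sutured 2 mm into a silicone tube of 10 mm. In the ES group (3 libraries) the nerve received electrical stimulation for 1 h directly after injury, and in the control group (3 libraries) it received none. Both groups therefore carried the same injury and repair, and no uninjured nerve is among the samples. The labels do not name the stretch of nerve sampled, nor whether each library is a different animal. The p-values therefore cover the spread from library to library alone, which may be technical.

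Interleukin-1 alpha and beta act through the receptor chain encoded by Il1r1, which signals only when it pairs with the accessory chain encoded by Il1rap. Il1rn occupies the same receptor without signalling, and Il1r2 binds the cytokine but lacks the intracellular signalling domain. Interleukin-18 is held back by the secreted protein of Il18bp, and interleukin-33, an alarm signal stored in the nuclei of stromal and barrier cells, acts through Il1rl1 (ST2) together with Il1rap. In injured peripheral nerve, interleukin-1 beta is known as an early product of Schwann cells and of entering myeloid cells.

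The library totals ran from 14962319 to 17119144 counts, so that 1 count stood for 0.0593 to 0.0657 CPM (counts scaled by depth, TMM-corrected). The markers of Schwann cells fixed for the tissue check were present, 8 of 8, with a summed level of 9280 to 12618 CPM. One library, ES 2, stood apart. Its summed level of 11 neutrophil markers was 232 CPM, against 18.9 to 39.2 CPM in the other libraries, and that of 3 erythrocyte markers was 1964 CPM, against 113 to 252 CPM. The fitted values of the 9 tested members and the medians of the pathway lists are therefore given with and without ES 2, and Il1a by its counts. In bulk tissue, fewer cells of a type and less RNA per cell cannot be told apart.

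Some of the genes lie in clusters, and others lie apart. As the deposited tables give them (build not settled), Il1a (chromosome 3, 121825412 to 121836086) and Il1b (121876263 to 121882726) were neighbours on the minus strand, 40177 bases apart. Il1rn (chromosome 3, 1452644 to 1468614) lay far from them on the same chromosome, beside the interleukin-36 genes. The receptor genes Il1r2 (chromosome 9, 46840992 to 46881264), Il1r1 (46962288 to 47036670) and Il1rl1 (47134034 to 47182170) stood in one row on the plus strand with Il1rl2, Il18r1 and Il18rap, over 417512 bases. Il33 (248132090 to 248147029) and Il18bp (167091522 to 167093560) were on chromosome 1, Il18 (54993859 to 55016299) on chromosome 8 and Il1rap (77463954 to 77593207) on chromosome 11.

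The sequence upstream of 4 of these genes is shown. For Il1b, Il1a and Il1rn, ES 2 was at least 2-fold above every other library. Il18 was above control in every ES library, and ES 2 was its highest library too, at 1.06 times the next. RefSeq (build GRCr8) held a promoter entry for 9 of the 10 members; Il1r2 had none. Each line gives the 250 bases before the annotated start, 5′ to 3′ on the gene's strand. Capitals mark matches on either strand, none of which overlap. One set of letters was TATAAA, a core promoter element. The next was GAGGAA, read by the myeloid factor PU.1. The last was TGANTCA, the AP-1 site.
Il1b (minus strand, chr3:137036582-137036831): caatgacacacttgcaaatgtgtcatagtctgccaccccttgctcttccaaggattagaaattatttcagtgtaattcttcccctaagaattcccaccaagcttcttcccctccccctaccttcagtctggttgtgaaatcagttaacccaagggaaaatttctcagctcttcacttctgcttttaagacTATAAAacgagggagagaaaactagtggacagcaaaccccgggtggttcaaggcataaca
Il1a (minus strand, chr3:136990018-136990267): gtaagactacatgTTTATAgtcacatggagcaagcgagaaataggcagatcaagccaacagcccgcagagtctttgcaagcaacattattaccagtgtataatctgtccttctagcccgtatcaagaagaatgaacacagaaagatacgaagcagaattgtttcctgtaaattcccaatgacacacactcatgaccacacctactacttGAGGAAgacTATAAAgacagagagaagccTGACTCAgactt
Il1rn (plus strand, chr3:27520072-27520321): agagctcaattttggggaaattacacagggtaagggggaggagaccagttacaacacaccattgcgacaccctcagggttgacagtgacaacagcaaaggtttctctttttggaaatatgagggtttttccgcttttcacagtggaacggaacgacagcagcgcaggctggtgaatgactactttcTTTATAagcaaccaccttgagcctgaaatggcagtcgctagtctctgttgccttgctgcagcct
Il18 (plus strand, chr8:59801822-59802071): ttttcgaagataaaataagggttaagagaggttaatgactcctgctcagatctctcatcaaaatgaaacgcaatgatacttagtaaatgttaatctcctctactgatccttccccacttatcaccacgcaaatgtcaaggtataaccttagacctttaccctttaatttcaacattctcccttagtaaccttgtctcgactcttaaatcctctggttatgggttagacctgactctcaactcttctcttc
The TATAAA letters stood 60 to 55 bases before the start of Il1b and 32 to 27 bases before that of Il1a, and the match of Il1rn, 64 to 59 bases before its start, lay on the other strand. A further match of Il1a, 237 to 232 bases before its start, also lay on the other strand. The same letters stood 29 to 24 bases before the start in 1 of the 2 entries of Il33 and, on the other strand, 246 to 241 bases before that of Il1rl1, and neither of these genes was highest in ES 2. In all, 5 of the 9 members with an entry held them. GAGGAA and TGANTCA matched in the window of Il1a, and the window of Il18 held none of the 3. Il18, Il18bp and Il1rap were also highest in ES 2 and held no TATAAA match. Among all 33469 RefSeq promoter entries, 12.9% held a TATAAA match, 23.3% a GAGGAA match and 6.34% a TGANTCA match in the same window. A match describes the letters and not a site in use.

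Il33 was by far the most abundant member per length of transcript. Its FPKM (fragments scaled by gene length and depth, as deposited) was 133, 109 and 121 in control 1 to 3 and 94.9, 122 and 116 in ES 1 to 3. The lowest of these, 94.9, was above the highest FPKM of any other member in any library, 27.0 for Il1b in ES 2. Over all 6 libraries the mean FPKM of Il33 was 8.43 times that of the next member, and Il33 made up 47.8% (ES 2) to 70.4% (control 2) of the summed FPKM of the 10 genes.

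Below Il33, the control libraries gave an order whose middle ranks did not separate. Il1r1 (13.8 ± 3.93 FPKM, SD, n = 3), Il18bp (11.7 ± 1.01), Il1rap (8.29 ± 0.625), Il18 (7.53 ± 1.57), Il1rl1 (7.43 ± 4.00) and Il1rn (6.80 ± 1.70) followed. Il18bp lay above Il1rap in every library, and the other neighbours in this order overlapped. Il1b (1.39 ± 0.704 FPKM) lay below all of these without overlap. Il1b and Il1r2 (0.649 ± 0.214) overlapped, and Il1a was lowest at 0.265 ± 0.101 FPKM. The mRNA of the classical cytokines Il1a and Il1b and of the decoy receptor Il1r2 was thus scarce in control nerve on day 4, where the messages of the signalling chains Il1r1 and Il1rap were present. In the ES libraries the mean FPKM of Il33 was 111 ± 14.1 (SD, n = 3), and all members below it overlapped their neighbours. They were Il18bp (15.8 ± 3.53), Il1rn (15.6 ± 9.67), Il18 (12.5 ± 0.945), Il1r1 (11.7 ± 0.600), Il1rap (11.6 ± 2.22), Il1b (10.2 ± 14.6), Il1rl1 (6.52 ± 2.86), Il1r2 (3.84 ± 5.78) and Il1a (0.741 ± 0.787).

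**Figure D1:**
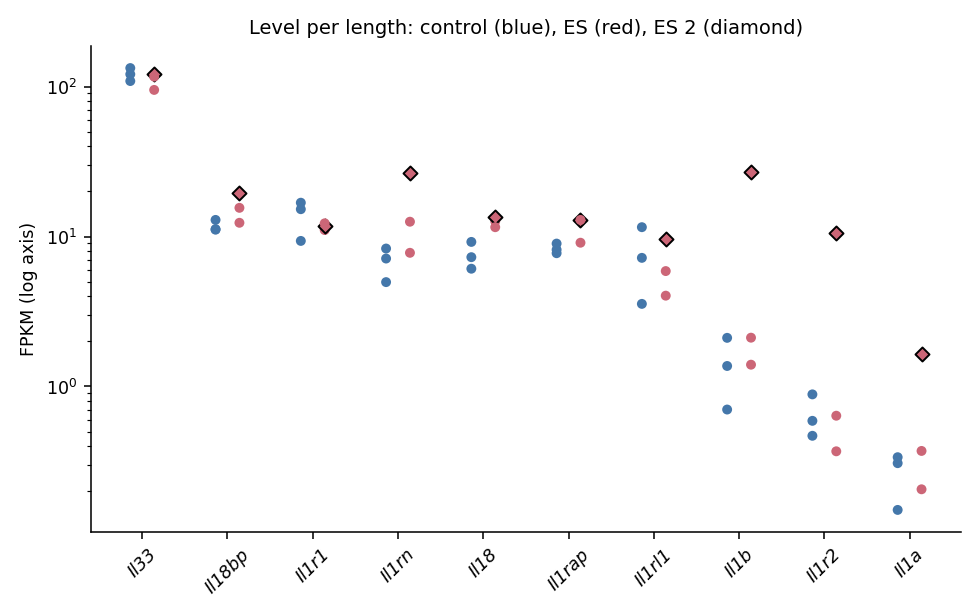
FPKM (vertical log axis) of the 10 genes, in order of their mean over 6 libraries; each point is a library, control in blue, ES in red and ES 2 as a diamond. Il33 sits between 94.9 and 133 FPKM, above every value of the other genes, and the diamonds of Il1b, Il1r2 and Il1a stand clear of the other points of the same gene.

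The comparison of ES with control asks whether stimulation at the time of injury left these messages at another level on day 4. Of the 9 tested members, 0 were called by the quasi-likelihood test of edgeR after Benjamini-Hochberg adjustment, against 25 of 14828 genes in all (0.169%). At an unadjusted p under 0.05, Il18, Il1rap and Il18bp were higher in ES and 0 members were lower; 4.01% of all tested genes passed this mark upward and 5.94% downward. The members' median log2 fold change was 0.49, beside 0.00 over all tested genes. Without ES 2, the test called 0 of 9 members, against 0.146% of genes, while Il18 and Il1rap had an unadjusted p under 0.05 (3.35% of genes did upward) and the median was 0.25. DESeq2 called 1 member, Il18, against 2.07% of all genes, and gave no p for Il1b or Il1r2. Leaving out control 1 turned the count of 25 genes into 5, leaving out control 2 into 152, control 3 into 2 and ES 3 into 41.

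**Figure D2:**
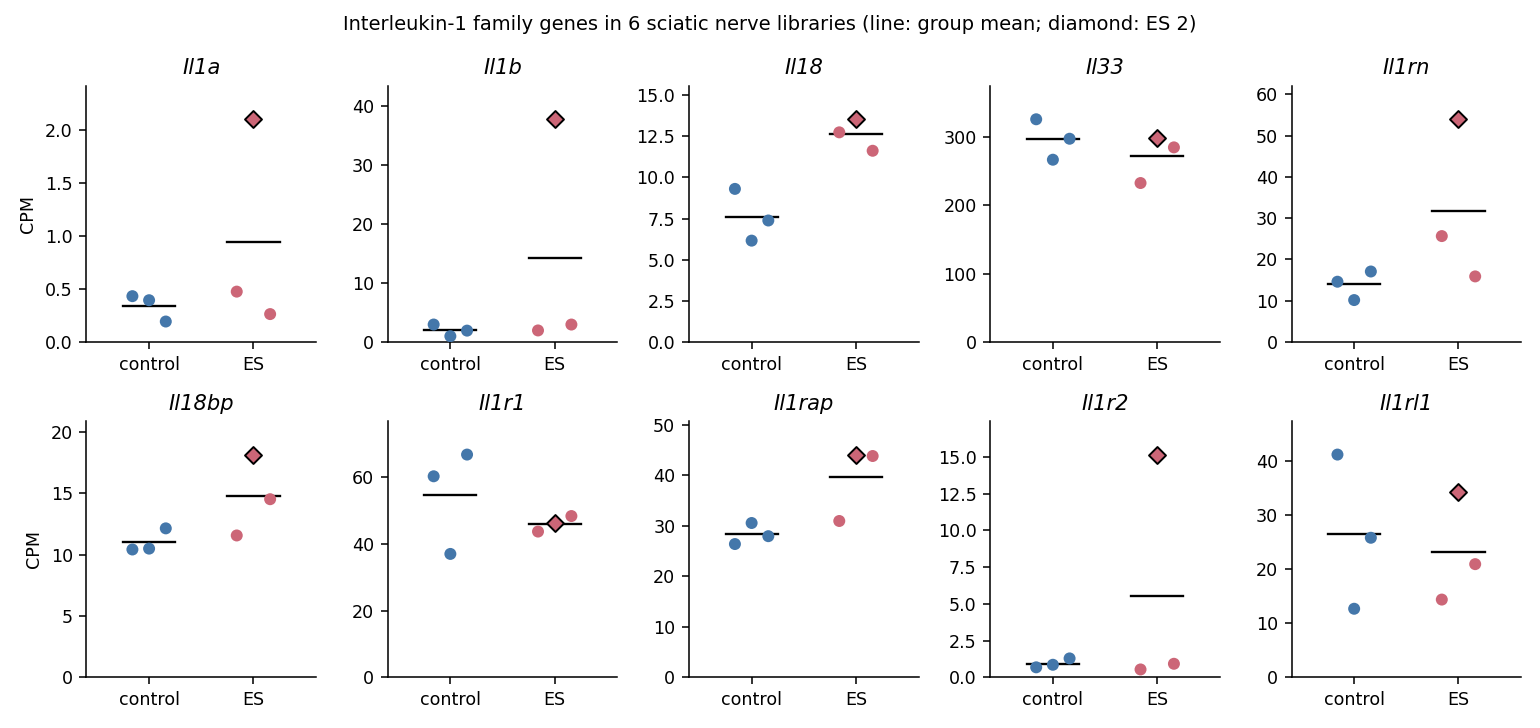
CPM of each gene in the 6 libraries (points; control in blue, ES in red, ES 2 as a diamond), with the group mean as a line; each vertical axis starts at 0. In the panels of Il18 and Il1rap all ES points lie above all control points, while in those of Il1a, Il1b and Il1r2 the ES mean is carried by the ES 2 diamond.

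Il18, the ligand made as an inactive precursor and cut by caspase-1, had the clearest separation between the groups. It was at 9.31, 6.16 and 7.38 CPM in control 1 to 3 and at 12.7, 13.5 and 11.6 CPM in ES 1 to 3. Every ES library was above every control library, and ES 2 was close to the other ES libraries. In edgeR the log2 fold change was 0.73 ± 0.18 (SE; 95% interval 0.34 to 1.12), 1.66-fold, with an edgeR adjusted p of 0.161. Without ES 2 it was 0.68 ± 0.20, with an edgeR adjusted p of 0.263. DESeq2 gave an adjusted p of 0.036, and the adjusted p ran from 0.036 to 0.436 over all alternatives.

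Its secreted inhibitor gene, Il18bp, was at 10.4, 10.5 and 12.1 CPM in control, against 11.6, 18.1 and 14.5 CPM in ES. ES 1 lay within the control range, and ES 2 was highest. Fitted over all genes, its log2 fold change was 0.42 ± 0.17 (SE), with an edgeR adjusted p of 0.446, and 0.25 ± 0.17 without ES 2. The ratio of Il18bp to Il18 in FPKM was 1.21, 1.84 and 1.77 in control and 0.978, 1.45 and 1.35 in ES, so the groups overlapped. The receptor chains for interleukin-18 were scarce: Il18r1 had 18, 11 and 14 counts in control and 9, 23 and 10 in ES, and Il18rap had 33, 17 and 50 in control and 31, 44 and 52 in ES.

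Il1rap, the accessory chain shared by the receptors for interleukin-1 and interleukin-33, was the other member without overlap. It stood at 26.4, 30.5 and 27.9 CPM in control, against 30.9, 44.1 and 43.8 CPM in ES. ES 2 and ES 3 were well above control, and ES 1 lay just above the highest control library. The log2 fold change was 0.49 ± 0.14 (SE; 95% interval 0.18 to 0.79), with an edgeR adjusted p of 0.236, and 0.41 ± 0.15 without ES 2 (edgeR adjusted p = 0.399). Of all tested genes, 7.54% had every ES library above every control library, as 2 of the 9 tested members did; without ES 2 the share of all genes was 12.5%. Gene counts do not separate the membrane form of Il1rap from its soluble form.

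The summed level of 10 macrophage markers was 980 to 1090 CPM in control, against 1215 to 1566 CPM in ES, without overlap. Of the 10, 7 were highest in ES 2, against 15.9% of all tested genes. Singly, 6 of the 10 had every ES library above every control library, against 7.54% of all tested genes. edgeR called 0 of the 10 and DESeq2 called 4, against 0.169% and 2.07% of all genes. Cd68, the lysosomal marker with the highest log2 fold change of the list, had a control mean of 98.0 ± 3.68 CPM and an ES mean of 149 ± 27.1 CPM (SD, n = 3). Csf1r, the receptor that macrophages need for survival, had 272 ± 15.5 CPM in control, against 280 ± 25.8 CPM in ES, and Adgre1 and Cd163 overlapped between the groups, with 56.5 and 67.0 CPM in ES 1. The part of these cells in the values of Il18, Il18bp and Il1rap was not tested.

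ES 2 was at least 2-fold above every other library for Il1b, Il1a, Il1r2 and Il1rn. For the first 3 it alone stood clear of control, and for Il1rn ES 1 was above control too. Il1b, the main secreted interleukin-1 of myeloid cells, was at 2.96, 0.983 and 1.93 CPM in control, against 1.96, 37.7 and 2.95 CPM in ES. ES 2 was 12.8 times the highest other library, and ES 1 and ES 3 lay within the control range. The log2 fold change of 2.85 ± 1.49 (SE; edgeR adjusted p = 0.621) became 0.33 ± 0.45 without ES 2 (edgeR adjusted p = 0.881; 95% interval −0.69 to 1.34). DESeq2 gave no p for Il1b or Il1r2.

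Il1a, the interleukin-1 that is also active as a precursor in the cell, had 7, 6 and 3 counts in control and 8, 35 and 4 in ES. It failed the filter, and only ES 2 stood above the control range by more than 1 count. Fitted without a filter, its log2 fold change was 1.47 ± 0.72 (SE), with an edgeR adjusted p of 0.606.

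Il1r2, the decoy receptor found on neutrophils and some macrophages, was at 0.678, 0.852 and 1.28 CPM in control, against 0.533, 15.2 and 0.919 CPM in ES. ES 2 was 11.8 times the highest other library. In edgeR the log2 fold change was 2.56 ± 1.53 (SE; edgeR adjusted p = 0.667) and turned to −0.37 ± 0.53 without ES 2 (edgeR adjusted p = 0.888). In FPKM the ratio of the decoy to the signalling receptor, Il1r2 over Il1r1, was 0.031 to 0.063 in the control libraries, 0.033 in ES 1, 0.901 in ES 2 and 0.052 in ES 3.

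Il1rn, the receptor antagonist, was at 14.6, 10.2 and 17.1 CPM in control, against 25.7, 54.0 and 15.9 CPM in ES. ES 1 and ES 2 were above every control library, and ES 3 was within their range. Fitted over all genes, its log2 fold change was 1.19 ± 0.54 (SE; edgeR adjusted p = 0.559) and 0.58 ± 0.27 without ES 2 (edgeR adjusted p = 0.560). In FPKM the antagonist exceeded Il1b 3.38-fold to 7.07-fold in control, 8.98-fold in ES 1 and 3.68-fold in ES 3, whereas the ratio was 0.979 in ES 2. Both messages were high in ES 2, and Il1b by the larger factor.

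**Figure D3:**
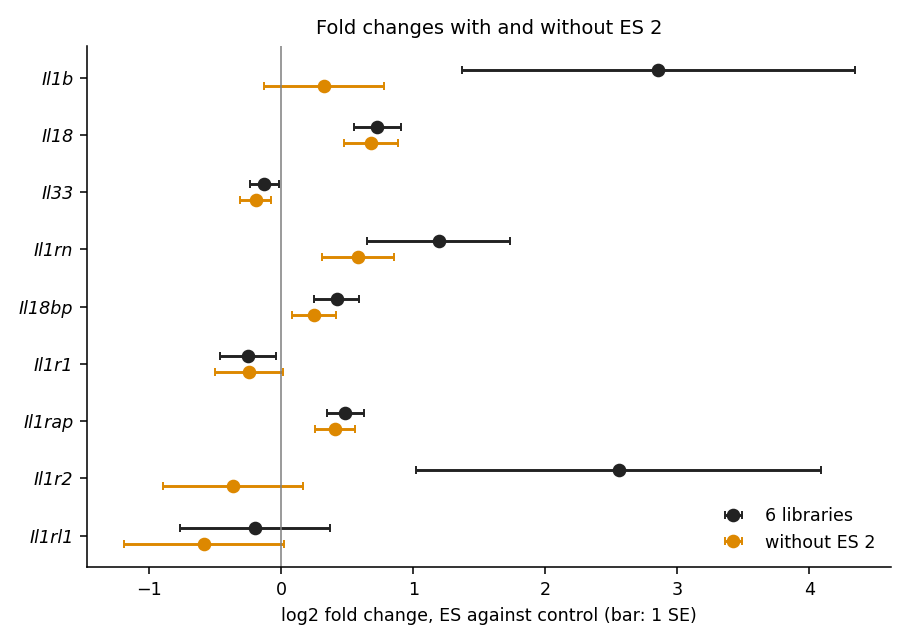
log2 fold changes of ES against control (horizontal axis, bars 1 SE) for the 9 tested genes, in black with all 6 libraries and in orange without ES 2. Il1b moves from 2.85 to 0.33 and Il1r2 from 2.56 to −0.37, while Il18 (0.73 and 0.68) and Il1rap (0.49 and 0.41) stay nearly in place.

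ES 2 was the highest library for 6 of the 9 tested members and for Il1a, against 15.9% of all tested genes. The 6 were Il1b, Il1r2, Il1rn, Il18bp, Il18 and Il1rap. For Il18bp, Il18 and Il1rap, ES 2 was only 1.25, 1.06 and 1.01 times the highest other library. ES 2 exceeded the highest other library at least 2-fold for 3 of the 9 (Il1b, Il1r2 and Il1rn), as it did for 0.566% of all tested genes. Most of the listed neutrophil and erythrocyte markers were highest in ES 2 too. Of the 11 neutrophil markers, 9 were highest in ES 2, and Fpr2 was at 0 in every library. Ngp had 0 counts in ES 2, against 2 in control 1 and 4 in ES 3. Cxcr1 was barely highest there, with 16 counts against 15 in control 1 and 14 in control 2. S100a9, an abundant neutrophil calcium-binding protein, reached 91.2 CPM in ES 2. For S100a9, ES 1 held 4.39 CPM, ES 3 held 3.15 CPM and the controls 0.852 to 1.23 CPM. With Mmp9 (51.4 CPM) and S100a8 (45.1 CPM), it made up most of the neutrophil sum of ES 2. Mpo, a neutrophil enzyme outside the list, is named after its values were seen and went the other way. Its mean was 7.98 ± 2.57 CPM in control, against 0.544 ± 0.425 CPM in ES (SD, n = 3). Every ES library, ES 2 included, was below every control library for Mpo (log2 fold change −3.87 ± 0.61, SE, edgeR adjusted p = 0.0913). All 3 erythrocyte markers were highest in ES 2. The part of these cells in the values of Il1b, Il1r2, Il1a and Il1rn was not tested.

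**Figure D4:**
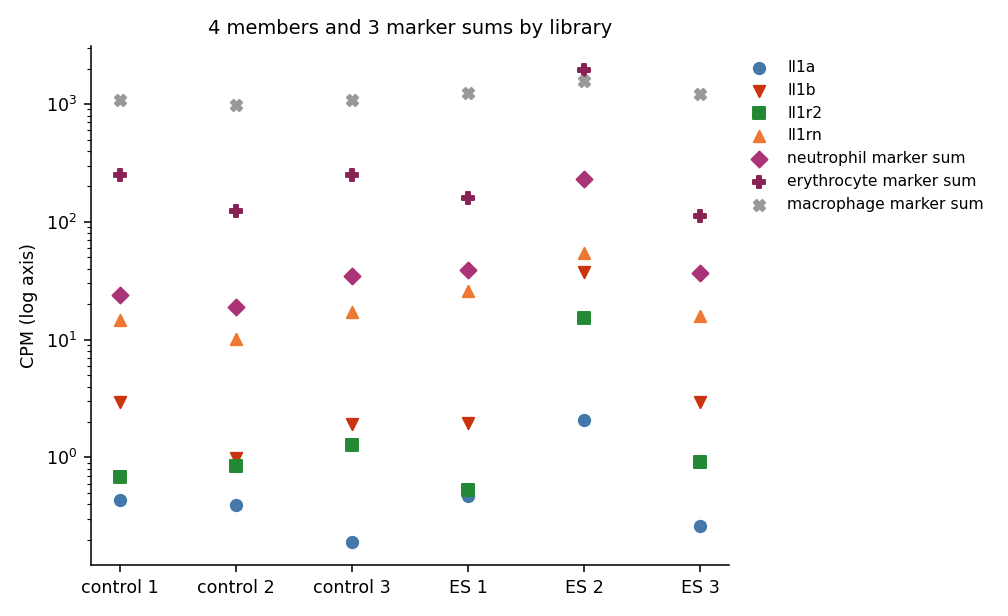
CPM (vertical log axis) of Il1a, Il1b, Il1r2 and Il1rn and the summed CPM of neutrophil, erythrocyte and macrophage markers in each of the 6 libraries (horizontal axis). In ES 2, Il1b is at 37.7 CPM, the neutrophil sum at 232 CPM and the erythrocyte sum at 1964 CPM, each above all other libraries.

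The likeness of other genes to Il1b was measured as the root mean square difference of centred log2 CPM over the 6 libraries, among 12347 protein-coding genes. The closest were Alas2 (0.54), the first enzyme of heme synthesis in red cells, the beta globin gene Hbb (0.55), Lcn2 (0.58), which encodes the iron-carrier-binding lipocalin of neutrophils and injured tissue, the chemokine Ccl3 (0.67) and the protease inhibitor Slpi (0.68). Alas2 reached 26.7 CPM in ES 2, with 1.13 to 3.70 CPM elsewhere. Lcn2 reached 97.2 CPM in ES 2, with 7.65 to 11.9 CPM elsewhere. Each of these genes was, as Il1b was, far highest in ES 2. Their closeness thus rests largely on that library and does not by itself show that the genes vary together.

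Il33 was at 326, 267 and 297 CPM in control, against 233, 298 and 285 CPM in ES. The groups overlapped, ES 1 was lowest, and ES 2 did not stand apart. The log2 fold change was −0.13 ± 0.11 (SE; edgeR adjusted p = 0.753), and its 95% interval, −0.37 to 0.11, left room for a fall or a small rise. Without ES 2 it was −0.19 ± 0.12, and with 1 library left out it ran from −0.20 (without control 2) to −0.02 (without ES 1), with −0.05 without control 1. The genes most like Il33 over the 6 libraries, picked as the closest of 12347, were Lims1, Cd2ap, Myo9a, Cobl and Atp7a. They differed from it by a root mean square of 0.022 to 0.037 in log2 CPM. Il33 itself varied little, from 233 to 326 CPM, so small values on this measure do not by themselves show that genes vary together. For Il18 the closest genes were Pmaip1, March10, Rab11fip4, Spata48 and Arl5c, at 0.087 to 0.13.

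Il1rl1, the receptor chain for interleukin-33, varied widely within each group. It was at 41.1, 12.6 and 25.7 CPM in control, against 14.3, 34.3 and 20.9 CPM in ES. The highest and the lowest library were both controls. In edgeR the log2 fold change was −0.20 ± 0.57 (SE; 95% interval −1.71 to 1.32; edgeR adjusted p = 0.945), −0.59 ± 0.61 without ES 2, 0.28 ± 0.56 without control 1 and 0.06 ± 0.61 without ES 1, so the data give it no direction. Mast cells and some lymphocytes carry this receptor; the summed level of 7 mast cell markers was 118 to 122 CPM in control, against 90.0 to 120 CPM in ES. Most of that sum was Kit (73.5 to 85.5 CPM), a growth factor receptor that other cells carry too. The mast cell protease Cma1 was at 13.5, 13.3 and 18.0 CPM in control, against 5.75, 10.5 and 11.4 CPM in ES. Its log2 fold change was −0.70 ± 0.25 (SE, edgeR adjusted p = 0.397). It alone of the list lay lower in ES without overlap, as 1220 of 14828 tested genes did. The protease Cpa3 ran from 9.17 to 16.3 CPM in control, against 4.50 to 11.7 CPM in ES. Ms4a2, a chain of the IgE receptor, ran from 1.77 to 4.99 CPM, against 1.30 to 2.76 CPM. Of the 7 markers, 6 had a log2 fold change below 0 (7 without ES 2), with a median of −0.50 (−0.42 without ES 2). edgeR called 0 of the 7 markers, and the part of mast cells in the value of Il1rl1 was not tested. The counts do not separate the membrane receptor from the soluble decoy made from the same gene.

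Il1r1, the signalling receptor for both interleukin-1 ligands, was at 60.3, 37.0 and 66.8 CPM in control, against 43.7, 46.2 and 48.4 CPM in ES. The ES libraries were close together and lay between control 2 and the other controls. Fitted over all genes, its log2 fold change was −0.25 ± 0.21 (SE; 95% interval −0.76 to 0.27; edgeR adjusted p = 0.765), and −0.24 ± 0.26 without ES 2. Without control 2, the lowest of the group, Il1r1 was called lower in ES, with a log2 fold change of −0.46 ± 0.09 and an edgeR adjusted p of 0.0456; no other alternative called it. Leaving out control 3 gave −0.08 ± 0.20 (edgeR adjusted p = 0.955) and leaving out control 1 gave −0.17 ± 0.26, so the value rests on single control libraries. The summed level of 7 fibroblast markers was 20905 to 27975 CPM in control, against 18465 to 20694 CPM in ES, and that of 5 endothelial markers was 419 to 532 CPM in control, against 344 to 363 CPM in ES, both without overlap. The fibroblast sum was mostly the collagens Col1a1 and Col3a1, the only 2 of the 7 without overlap. Pdgfra (log2 fold change 0.06 ± 0.08, SE) and Dcn (−0.01 ± 0.12), which mark fibroblasts, overlapped. edgeR called 0 of the 7 and DESeq2 called 1, Col3a1, lower in ES. All 5 endothelial markers lay lower without overlap, as 1220 of all 14828 tested genes did. edgeR called 1 of the 5, the growth factor receptor Kdr (−0.67 ± 0.09, edgeR adjusted p = 0.0366). DESeq2 called 4 of the 5 lower in ES. Over all genes, edgeR called 0.169% and DESeq2 2.07%. Adipocyte markers differed by more: 7 of 7 had a log2 fold change below 0, with a median of −2.36 (−3.34 without ES 2), and their summed level was 563 to 819 CPM in control, against 66.9, 381 and 147 CPM in ES 1 to 3, again without overlap. edgeR called 0 of these 7 and DESeq2 called 1. The part of these cells in the value of Il1r1 was not tested.

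In the rest of the pathway edgeR called 0 genes. Of 11 other family ligands and receptors, 4 were tested and 0 called by edgeR or DESeq2, with 0 at an unadjusted p under 0.05. Il36a, Il36g, Il36rn and Il1rapl1 had 0 counts in all 6 libraries, which allows up to 0.178 to 0.197 CPM per library for counting error only. Il1rl2, the interleukin-36 receptor chain, had 20, 13 and 15 counts in control and 10, 9 and 11 in ES (log2 fold change −0.72 ± 0.40, SE; edgeR adjusted p = 0.602), and −0.62 ± 0.48 without ES 2. Sigirr, an inhibitory receptor of the family, had a log2 fold change of 0.02 ± 0.15.

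All 18 signalling genes, from the adaptor Myd88 through the Irak kinases to the NF-kappaB subunits, were tested. Neither edgeR nor DESeq2 called any (0 of 18), and 0 had an unadjusted p under 0.05 in edgeR. Their median log2 fold change was 0.02, or −0.03 without ES 2. Myd88 had a log2 fold change of 0.10 ± 0.08 (SE), the kinase Irak2 one of 0.19 ± 0.18, the ubiquitin ligase Traf6 one of −0.18 ± 0.17 and the kinase adaptor Tab1 one of −0.10 ± 0.10. Without ES 2 these were 0.10 ± 0.10 for Myd88, 0.10 ± 0.20 for Irak2, −0.12 ± 0.19 for Traf6 and −0.06 ± 0.12 for Tab1.

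The 12 inflammasome and processing genes, which govern how precursor cytokines are cut and released, were all tested with 0 called by edgeR or DESeq2, 0 at an unadjusted p under 0.05 and a median of −0.03 (−0.04 without ES 2). Aim2, a sensor of cytosolic DNA, had a log2 fold change of 0.51 ± 0.47 (SE), the inflammatory caspase Casp4 one of −0.10 ± 0.12, the adaptor Pycard one of 0.10 ± 0.13 and Casp8 one of 0.10 ± 0.19. Without ES 2 these were 0.77 ± 0.50 for Aim2, −0.08 ± 0.14 for Casp4, 0.06 ± 0.14 for Pycard and 0.15 ± 0.22 for Casp8. Casp1, which cuts the precursors of Il1b and Il18 and is named after its values were seen, had 239, 165 and 213 counts in control and 190, 216 and 215 in ES (log2 fold change −0.03 ± 0.15).

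Genes that interleukin-1 is known to induce were mostly highest in ES 2, the library that also had the highest neutrophil and erythrocyte marker sums. Whether interleukin-1 induced them here was not tested. Of 19 listed, 18 were in the table and 12 were tested. edgeR called 0 of the 12, and 0 had an unadjusted p under 0.05. DESeq2 called Cxcl1, against 2.07% of all genes, and gave no adjusted p for Lcn2. Of the 12 tested, 10 were highest in ES 2, against 15.9% of all tested genes. The median log2 fold change of the 12 was 0.48, and 0.00 without ES 2. The neutrophil chemokine Cxcl1 had 7, 20 and 5 counts in control and 22, 149 and 16 in ES (log2 fold change 2.45 ± 1.12, SE, and 0.78 ± 0.61 without ES 2). Its relative Cxcl3 had 2, 1 and 10 counts in control and 20, 194 and 1 in ES, and reads could be shared among such related chemokines. Nfkbia, the inhibitor that NF-kappaB induces against itself, was at 37.8, 43.0 and 45.8 CPM in control, against 47.2, 84.0 and 47.3 CPM in ES (log2 fold change 0.50 ± 0.26, and 0.17 ± 0.11 without ES 2). Ccl2, a monocyte chemokine, had a log2 fold change of −0.16 ± 0.09, and −0.18 ± 0.10 without ES 2.

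A few responsive genes outside the naming rule are given after their values were seen. Cxcl2 had 2, 1 and 2 counts in control and 11, 598 and 2 in ES, and the granulocyte growth factor Csf3 had 88 counts in ES 2 and 0 in every other library. The prostaglandin synthase Ptgs2 differed from these in ES 1 and ES 3. It was at 5.36, 2.88 and 4.30 CPM in control, against 1.42, 6.89 and 1.25 CPM in ES, so that ES 2 was the highest of all and the other ES libraries were the lowest. Its log2 fold change was −0.39 ± 0.72 (SE) with ES 2 and −1.64 ± 0.36 without it (edgeR adjusted p = 0.119).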

How the data were processed

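The authors deposited whole-number read counts per gene and FPKM values, 1 column per library without pooling, and group means of FPKM, which equalled the means of those columns and had no other use. No aligner, counting tool or strand setting is given in the sources used here. Per the submitters' processing notes the build is rn7, but the tables hold 6890 clone names starting AABR07 and reach position 282724300 on chromosome 1, which resemble the earlier Rnor_6.0, so the build of the printed coordinates is not settled. Each deposited FPKM value equalled the count over gene length and 1 depth constant per library. Levels are compared between genes only in FPKM. Loci with an identifier but no name (830, 0.723% to 0.840% of counts) were kept.

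Counts were fitted with edgeR 4.0.16 in R 4.3.3 (filterByExpr, TMM, robust quasi-likelihood test, two-sided, adjusted p under 0.05 over 14828 genes); SE is the absolute log2 fold change over the square root of F. Alternatives were DESeq2 1.42.0, limma 3.58.1 (voom, and log2 of FPKM plus 0.1 or 1), other filters and scaling, a replicate block and each library left out. The code was tested on simulated data. Replicate numbers did not pair libraries (correlation of deviations across genes −0.13 to −0.04 for equal numbers). Libraries of a group differed beyond sampling noise (chi-square per gene 10.6 to 18.3). Members and gene lists were chosen with earlier results of these data known. The naming rule covered the 10 members, up to 4 genes of lowest p per pathway list, and the 5 genes most like Il1b, Il18 and Il33 with a mean of at least 1 CPM. From the cell type lists it covered S100a9, Hbb, Cd68, Adipoq and Kdr. Other genes named from those lists, among them Csf1r, Kit, Cma1, Ngp, Pdgfra and Col3a1, fall outside the rule. Of the listed genes, Nos2, Itgam, Pecam1 and Hba1 were not analysed here.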

Additional observations from a re-analysis of the deposited data

How the results depend on the processing

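Of 135 values of the 9 tested members under the alternatives, 128 kept their direction and their side of the threshold, and 2 (Il1b and Il1r2 with DESeq2) kept their direction but had no p. Il18 passed it with DESeq2 and Il1r1 without control 2, as given above, and these made up the 1 member called under either setting; leaving out 1 library gave 0 to 1 member called. With 1 library left out, Il1r2 ran from −0.37 (without ES 2) to 3.10 and Il1rl1 from −0.59 to 0.28 (without control 1; 0.06 without ES 1), so both changed sign, while Il1r1 ran from −0.46 to −0.08 and Il33 from −0.20 to −0.02; the cause was not tested. The count of 25 called genes was 132 with no filter on low counts, 301 with DESeq2, 2 with limma-voom, 2 without robust estimates, 2 and 3 with limma on log2 FPKM plus 0.1 and plus 1, and 2 to 152 with 1 library left out. With the replicate number as a block, 11 genes and 0 members were called; no library correlated best with its own number. The fitted value of Il1a, below the filter, could be had only with no filter. For Il1a, Il1r2 and the chemokines Cxcl1, Cxcl2 and Cxcl3, counts near or below 20 in most libraries limit the precision.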
